A study of Arabidopsis thaliana with 3 samples.

Results

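The pollen coat genes described here are 9 members of a pair of gene clusters in Arabidopsis thaliana. They are the 6 glycine-rich oleosin genes GRP14 (AT5G07510), GRP18 (AT5G07520), GRP17 (AT5G07530), GRP16 (AT5G07540), GRP19 (AT5G07550) and GRP20 (AT5G07560) on chromosome 5, and the 3 lipase genes EXL4 (AT1G75910), EXL5 (AT1G75920) and EXL6 (AT1G75930) on chromosome 1. They were taken by identifier from 26810 genes listed in any library, and all 9 passed the filter on low values that kept 20214 genes. The members were chosen by their RPKM values and ratios in these same libraries, already known from earlier work on them, so their levels and ratios are a description, without a test.

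Every library came from buds of immature inflorescences of dcl1-7 plants, which carry a mutant allele of DCL1, the Dicer enzyme of microRNA processing. The plants were about 4 weeks old and untreated, with a day of 16 h light and a night of 8 h. No other genotype was analysed, so nothing below shows an effect of dcl1-7. PolyA RNA was sequenced in 2 RNA-seq libraries and in 1 GMUCT library, which reads the 5′ ends of polyA RNAs without a cap, left by decapping or by a cut. Values are RPKM, reads scaled by gene length and by the size of the library, and the single GMUCT library gives no replicate error.

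Pollen of this plant is covered by a coat of lipids and proteins that comes from the tapetum, the inner cell layer of the anther wall. Oleosins sit on lipid droplets, held by a long hydrophobic stretch that bends at a proline knot, and the GRP oleosins carry a second part after it that can be rich in glycine. GRP17 is known for a role in the rapid hydration of pollen on the stigma. The EXL proteins are extracellular lipases of the GDSL family, and EXL4 is known for a role in pollen hydration as well.

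A sequence shared by the 6 GRP genes is shown first. All 6 coding sequences held the proline knot, a proline followed by any 5 residues, a serine and a proline, any 3 residues and a last proline. The knot does not set them apart, as the oleosin genes AT5G07571 and AT5G07600 of the same locus, outside the group, held it as well. The coding strand is printed below from the TAIR10.1 genome with its RefSeq annotation, 60 bases each on the minus strand of chromosome 5, with the codons of the 3 prolines and the serine in capitals.
GRP14 (chr5:2378584-2378643): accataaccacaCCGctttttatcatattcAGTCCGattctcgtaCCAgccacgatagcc
GRP18 (chr5:2381054-2381113): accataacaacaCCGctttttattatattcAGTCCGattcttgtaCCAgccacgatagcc
GRP17 (chr5:2384157-2384216): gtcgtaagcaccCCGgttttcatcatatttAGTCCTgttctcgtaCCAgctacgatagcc
GRP16 (chr5:2387030-2387089): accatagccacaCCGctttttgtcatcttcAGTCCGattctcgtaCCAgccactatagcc
GRP19 (chr5:2389029-2389088): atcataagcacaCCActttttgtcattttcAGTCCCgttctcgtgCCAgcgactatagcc
GRP20 (chr5:2390808-2390867): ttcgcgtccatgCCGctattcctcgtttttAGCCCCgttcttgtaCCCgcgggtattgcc

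Over a window of 132 bases around the knot, compared without gaps, GRP14 and GRP18 were the closest pair of the 6, with 95.5% identical bases. GRP20 stood furthest off, with 59.1% to 65.9% identity to the other members. It was closer to a neighbouring oleosin gene of the same locus, AT5G07571, at 81.8%. AT5G07600, also outside the group, was 84.85% identical to GRP14 and 83.33% to GRP18. That was above the 75.76% of GRP14 with GRP17 and with GRP16.

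The part after the knot was not aligned between members. The stretches below are the 40 codons in a row with the most glycine codons in GRP17, GRP16 and GRP14, the members with the highest glycine content, again on the minus strand of chromosome 5 in TAIR10.1. Glycine codons (GGN) are in capitals, and 19, 23 and 26 of the 40 codons are of this kind.
GRP17 (chr5:2382981-2383100): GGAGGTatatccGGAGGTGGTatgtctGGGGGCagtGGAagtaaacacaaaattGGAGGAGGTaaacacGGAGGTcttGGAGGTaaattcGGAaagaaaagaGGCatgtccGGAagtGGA
GRP16 (chr5:2386386-2386505): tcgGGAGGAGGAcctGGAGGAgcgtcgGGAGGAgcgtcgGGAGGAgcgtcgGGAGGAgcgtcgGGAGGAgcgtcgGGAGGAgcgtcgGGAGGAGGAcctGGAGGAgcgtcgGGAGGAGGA
GRP14 (chr5:2378005-2378124): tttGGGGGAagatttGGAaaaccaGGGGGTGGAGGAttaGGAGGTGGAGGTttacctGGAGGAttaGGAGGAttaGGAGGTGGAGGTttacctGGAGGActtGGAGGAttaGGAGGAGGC

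The 3 lipase genes share the block that names the GDSL family. The glycine, aspartate and serine codons of the block are in capitals, on the plus strand of chromosome 1 in TAIR10.1, and EXL3, a neighbour outside the group, is shown for comparison.
EXL4 (chr1:28501589-28501636): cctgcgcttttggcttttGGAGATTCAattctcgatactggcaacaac
EXL5 (chr1:28505657-28505704): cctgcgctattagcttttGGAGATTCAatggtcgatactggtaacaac
EXL6 (chr1:28508190-28508237): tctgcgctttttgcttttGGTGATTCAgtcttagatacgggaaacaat
EXL3 (chr1:28499302-28499349): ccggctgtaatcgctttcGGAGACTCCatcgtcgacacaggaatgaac

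Over aligned coding positions EXL4 and EXL5 were 82.9% identical, EXL5 and EXL6 75.6%, and EXL4 and EXL6 72.8%. Identity of these 3 to EXL1, EXL2 and EXL3, which lie beside them on the chromosome, was 57.9% to 62.2%.

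The steps between low RPKM values put the depth at about 18500000 reads in RNA-seq library 1, 8610000 in RNA-seq library 2 and 19300000 in GMUCT. By these estimates the members rested on 385 to 18100 reads in the RNA-seq libraries and on 225 to 195000 in GMUCT. Across all tested genes the log2 ratio of the RNA-seq libraries had an SD of 0.216, with 67 genes at least 2-fold apart. The flower identity genes AP3 (89.31 and 89.2 RPKM in RNA-seq libraries 1 and 2) and PI (113.51 and 116.29 RPKM) were present. The seed storage genes CRA1, CRC and SESA1 and the seed oleosin OLEO1 did not pass 0.24 RPKM in either RNA-seq library. In whole buds, fewer tapetum cells and less RNA per tapetum cell cannot be told apart.

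Among the oleosins, GRP20 had the most polyA RNA. It was listed at 678.91 and 597.93 RPKM in RNA-seq libraries 1 and 2 and at 308.22 RPKM in GMUCT. The GMUCT value lay below both RNA-seq values, with a log2 ratio of -1.05 to their mean log2 level and -0.955 against library 2 alone, just inside 2-fold. All log2 ratios here are GMUCT minus the RNA-seq mean on the log2(RPKM + 0.5) scale.

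GRP17 followed in RNA-seq with 500.32 and 442.79 RPKM, but its GMUCT value was 5176.17 RPKM. Against an RNA-seq mean of 471.6 ± 40.7 RPKM (SD, n = 2) this gave a log2 ratio of 3.46, the largest of the 9 members. GRP17 ranked 87th among all listed genes by mean RNA-seq level and 3rd in GMUCT. By ratio it ranked 479th of the 20214 tested genes.

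GRP16 lay on the same side, with 158.85 and 143.37 RPKM by RNA-seq and 824.05 RPKM by GMUCT, a log2 ratio of 2.45. GRP14 had 186.76 and 237.55 RPKM by RNA-seq and 346.55 RPKM by GMUCT, a ratio of 0.72. Its GMUCT value lay above both RNA-seq libraries by less than 2-fold, and its RNA-seq libraries were the furthest apart of the 9 members, by 0.35 on the log2 scale.

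GRP18, the near twin of GRP14 around the knot, had 41.41 and 45.79 RPKM by RNA-seq and 45.0 RPKM by GMUCT. The GMUCT value fell between the RNA-seq values, so the assays overlapped. GRP19, the shortest of the coding sequences at 106 codons, was listed at 423.05 and 413.18 RPKM by RNA-seq and 230.28 RPKM by GMUCT, a log2 ratio of -0.86. Its RNA-seq values differed by 0.03 on the log2 scale, and the GMUCT value lay below both.

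**Figure D1:**
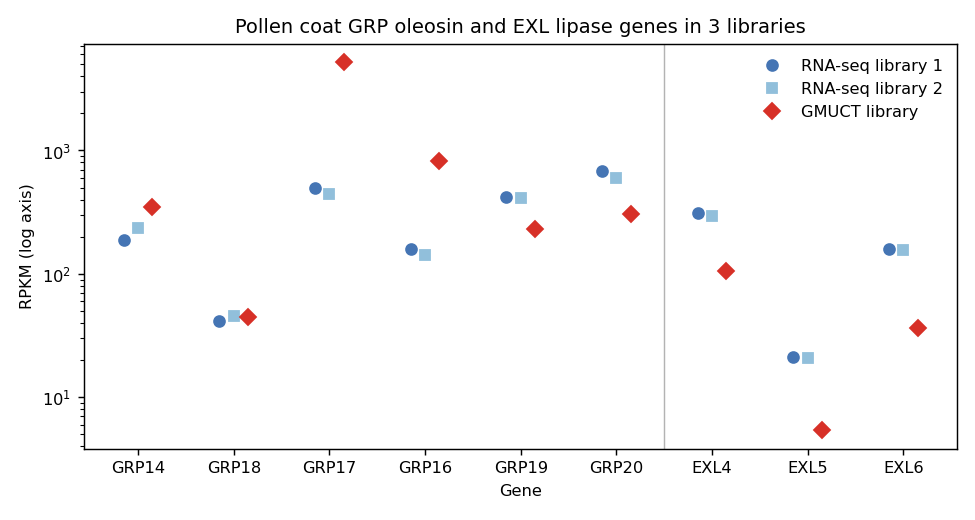
RPKM (log axis) of each of the 9 genes in the 2 RNA-seq libraries and the GMUCT library; each point is 1 library. GMUCT lies far above RNA-seq for GRP17 (5176.17 RPKM) and GRP16 (824.05 RPKM), at the RNA-seq level for GRP18, and below it for GRP19, GRP20 and the 3 EXL genes.

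In all 3 lipase genes the GMUCT level lay below both RNA-seq levels. EXL4 was listed at 310.83 and 294.56 RPKM by RNA-seq and 105.91 RPKM by GMUCT, a log2 ratio of -1.51. EXL6 had 158.73 and 155.11 RPKM by RNA-seq and 36.15 RPKM by GMUCT, the lowest ratio of the group at -2.10. Counted from the lowest ratio upwards, EXL6 ranked 348th of the tested genes.

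EXL5 was the least abundant member, with 21.03 and 20.62 RPKM by RNA-seq and 5.39 RPKM by GMUCT, a log2 ratio of -1.86. Its level is less certain than that of EXL4 and EXL6. The annotation gives EXL5 4 transcript models, and 71 of its 1873 exonic words of 50 bases, the read length, also occurred outside the gene.

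In the 2-fold rule, a gene is counted where GMUCT is at least 2-fold above, or at least 2-fold below, each of the RNA-seq libraries. GRP17 and GRP16 were above both, 2 of 9 members, where 19.9% of all tested genes were. EXL4, EXL5 and EXL6 were below both, 3 of 9 members, where 17.3% of all tested genes were. The remaining 4 members, all of them GRP genes, met neither side. At 4-fold, GRP17 and GRP16 were still above both libraries, where 8.71% of all tested genes were, and EXL6 alone was below both, where 1.95% were. Because the members were chosen with these ratios known, nothing is read from these shares. With the trend of the ratio with gene length removed, 5 members were below both libraries, as the ratio of GRP19 became -1.43 and that of GRP20 -1.32, while that of GRP14 became 0.24 and that of GRP18 turned to -0.24.

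The order of the RNA-seq levels was GRP20, GRP17, GRP19, EXL4, GRP14, then EXL6 and GRP16 whose library values overlapped, then GRP18 and EXL5. In GMUCT the order was GRP17, GRP16, GRP14, GRP20, GRP19, EXL4, GRP18, EXL6 and EXL5, from 1 library. As these are RPKM, levels are per length of gene in both assays.

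The make-up of the GRP cluster differed between the assays. GRP20 made up 34.1% and 31.8% of the summed RPKM of the 6 genes in RNA-seq libraries 1 and 2 and 4.45% in GMUCT. GRP19 made up 21.3% and 22.0% in RNA-seq and 3.32% in GMUCT. GRP17 made up 25.2% and 23.5% in RNA-seq and 74.7% in GMUCT. The 6 genes together took 0.417% and 0.382% of all RPKM in the RNA-seq libraries and 1.26% in GMUCT, while EXL4 to EXL6 took 0.103% and 0.0956% in RNA-seq and 0.0269% in GMUCT.

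**Figure D2:**
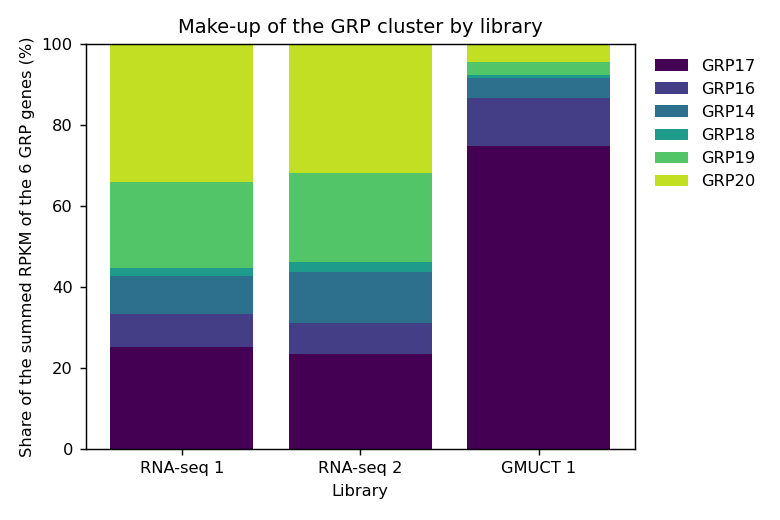
Share (%) of each GRP gene in the summed RPKM of the 6 GRP genes, 1 stacked bar per library. The RNA-seq bars are alike, with GRP20 at 34.1% and 31.8%, while GRP17 fills 74.7% of the GMUCT bar.

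In chromosome order the log2 ratios of the 6 GRP genes were 0.72, 0.05, 3.46, 2.45, -0.86 and -1.05. All 6 lie next to each other on the minus strand, each with 2 exons in the first transcript model. GRP14 and GRP18, 95.5% identical around the knot, are neighbours in this order, and so are GRP17 and GRP16, which were 64.4% identical in the same window.

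Glycine content is the feature that names the GRP family, and it differs widely among its members. The share of glycine codons was 27.9% of codons in GRP16, 26.7% in GRP17, 22.8% in GRP14 and 19.7% in GRP18. It was 10.4% in GRP19 and 9.80% in GRP20, and 9.91%, 9.07% and 7.58% in EXL4, EXL5 and EXL6. Several features ran with the log2 ratio across the 9 genes, with a Spearman's rho of 0.97 for glycine share, 0.87 for transcript GC content, -0.82 for exon number, 0.77 for the densest glycine stretch, 0.70 for coding GC content and -0.20 for transcript length. Across the 6 GRP genes alone, which all have 2 exons, rho was 0.94 for glycine share, 0.75 for the densest stretch, 0.60 for transcript GC, 0.37 for length and 0.03 for coding GC. These values describe related genes in the same 3 libraries. The members were chosen with their ratios known and hold glycine-rich genes beside lipases, so nothing is drawn from them.

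Across the genome no such relation ran through all genes. Over 20044 tested genes with a coding model, rho between glycine share and log2 ratio was -0.04. At the high end lay 86 tested genes outside the group with at least 20% glycine codons, a limit set after the values were seen. Of these, 20 had an RNA-seq mean under 1 RPKM and passed the filter only through GMUCT, so they could only lie on the high side. Of the other 66, 40 (60.6%) were above both RNA-seq libraries in the 2-fold rule and 5 below both, against 14.1% above and 18.9% below among the 18510 genes with at least 1 RPKM by RNA-seq. The median log2 ratio of the 66 genes was 1.3. With the 20 included, 60 of 86 (69.8%) were above both.

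Low RNA-seq levels moved with high ratios over all genes, with a rho of -0.39, so the same count was made among genes with an RNA-seq mean of at least 10 RPKM. There 29 of 50 genes rich in glycine codons (58.0%) were above both libraries and 5 below both, against 11.8% above and 26.8% below among the 8795 genes at this level. Examples at levels near those of the GRP genes were GRP23, a glycine-rich protein gene, with 187.85 and 167.47 RPKM by RNA-seq and 1465.39 RPKM by GMUCT. GRP5, another such gene, had 118.32 and 118.93 RPKM by RNA-seq and 915.9 RPKM by GMUCT. For both, GMUCT lay far above the RNA-seq libraries. AT3G23450, of uncharacterized function and with 67.7% glycine codons, had 132.03 and 98.87 RPKM by RNA-seq and 2381.93 RPKM by GMUCT. These examples were chosen after their values were seen.

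Genes on the other side also existed. The tapetum gene ATA20, with 20.2% glycine codons, had 1494.34 and 1375.62 RPKM by RNA-seq and 476.74 RPKM by GMUCT. GRP7, a glycine-rich RNA-binding protein of the clock, had 39.8% glycine codons and a log2 ratio of -0.17. Within the locus itself the oleosin gene AT5G07600 had 17.8% glycine codons, close to the 19.7% of GRP18, and a ratio of -1.11. ATA20 and GRP7 were likewise picked after their values were seen.

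**Figure D3:**
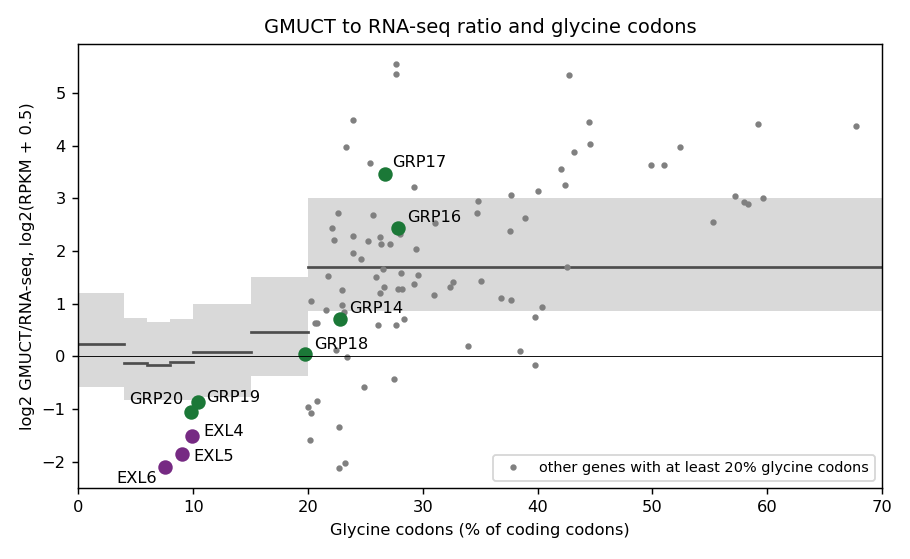
log2 ratio of GMUCT to RNA-seq against the share of glycine codons (%); green points are the 6 GRP genes, purple points the 3 EXL genes, small grey points other genes with at least 20% glycine codons (AT2G01021, at -7.46, lies outside the axis). Black lines are medians and grey bands the range from the lower to the upper quartile of non-member genes in ranges of glycine share; the band from 20% upwards has a median of 1.7 over 86 genes, 20 of which passed the filter only through GMUCT.

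Repeats in the coding sequence bear on how reads are placed. Of the exonic words of 50 bases, 58 of 1861 in GRP17, 66 of 992 in GRP16 and 14 of 986 in GRP18 occurred more than once in the genome, all of them within the gene itself. GRP14, GRP19, GRP20, EXL4 and EXL6 had no repeated word. A short annotated gene, AT5G07545, overlaps GRP16 on the opposite strand, which leaves the GRP16 value uncertain if strand was not used in counting. How the authors counted reads with several matches is not given in the sources used here, and its part in the ratios was not tested.

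The neighbours of the GRP genes on the chromosome had RNA-seq means of at most 17.4 RPKM, except AT5G07600, which at 44.04 RPKM lay near GRP18. Of 11 listed genes from AT5G07480 to AT5G07620, 9 could be tested with limma, a linear model fitted across all genes, with Benjamini-Hochberg adjustment at 0.05. It called 2 of these 9 higher and 3 lower, with 4 not past the test, where 32.1% of all tested genes were called higher and 36.9% lower. The oleosin gene AT5G07600 had 40.37 and 47.71 RPKM by RNA-seq and 20.04 RPKM by GMUCT (log2 ratio -1.11) and was called lower. Its direction was opposite to that of GRP16 and GRP17 and the same as that of GRP19 (-0.86) and GRP20 (-1.05). AT5G07571, the oleosin gene closest to GRP20, had only 1.06 and 1.64 RPKM by RNA-seq and 2.0 RPKM by GMUCT and did not pass the test.

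Of the other neighbours, the F-box gene AT5G07610 (log2 ratio -1.05) and the kinase gene AT5G07620 (-1.37) were called lower. The glycine/proline-rich protein gene AT5G07570 (0.43) and AT5G07572 (2.06) were called higher. AT5G07572 had 0.19 and 0.41 RPKM by RNA-seq and 2.8 RPKM by GMUCT. It passed the filter only through GMUCT, so it could only lie on the high side. AT5G07572 overlaps AT5G07571 on the opposite strand. The reads are strand-specific, but whether the counting used the strand is not given in the sources used here, so its value is uncertain. AT5G07580, of the ethylene response factor family, AT5G07590, a WD40 repeat gene, and AT5G07490 had ratios of -0.08, -0.98 and 0.35 without passing. KUOX1 and PEI1 were below the filter.

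Beside EXL4 to EXL6 lie EXL1, EXL2 and EXL3, which had less polyA RNA than EXL4 and ratios closer to 0. EXL1 had 59.66 and 60.61 RPKM by RNA-seq and 35.36 RPKM by GMUCT (log2 ratio -0.76, SE 0.045; limma adjusted p = 0.0063). EXL2, at 4.78 and 5.27 RPKM by RNA-seq and 5.19 RPKM by GMUCT, and EXL3, at 17.93 and 20.64 against 16.42 RPKM, did not pass the test. On the other flank, BGLU20, an anther beta-glucosidase gene, had 714.22 and 711.03 RPKM by RNA-seq and 207.62 RPKM by GMUCT, a ratio of -1.78 close to those of the lipases.

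The remaining genes of that locus were SKP1 (log2 ratio -1.43), a core subunit of ubiquitin ligases, and AT1G75960 (-0.70), both called lower. AT1G75870 (1.70) was called higher, and AT1G75860 (-0.19) did not pass. In all, 1 of 8 neighbours was above both RNA-seq libraries in the 2-fold rule and 2 below both. Of all tested genes, 19.9% were above both and 17.3% below both.

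Oleosin genes outside the cluster lay on both sides, in shares near those of all tested genes, so nothing about oleosins is read from them. Of 13 such genes, which include AT5G07571 and AT5G07600, 10 were tested: limma called 3 of them higher and 3 lower, and 4 did not pass, against 32.1% higher and 36.9% lower among all tested genes. Their median log2 ratio was 0.133, with no stable sign: it was -0.095 without RNA-seq replicate 2 and -0.291 with a trend with gene length removed. At the high end lay AT5G56100, a glycine-rich oleosin gene, with 1.47 and 1.83 RPKM by RNA-seq and 4.27 RPKM by GMUCT, and AT5G61610 with 6.38 and 5.26 against 11.61 RPKM. At the low end, after AT5G07600, lay OLEO3, at 4.0 and 4.29 against 2.6 RPKM. None of the 10 except AT1G13930, named oleosin-B3-like, at 248.46 and 288.27 RPKM, reached the RNA-seq level of GRP14; AT1G13930 was singled out after its values were seen.

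GDSL lipase genes outside the group spread to both sides. Of 100 annotated genes 64 were tested, with 16 called higher, 30 lower and 18 not past the test by limma, against 32.1% higher and 36.9% lower among all tested genes. The median log2 ratio was -0.224. It was -0.604 with the filter at a mean of 5 RPKM, and 5 of the 16 genes called higher had an RNA-seq mean under 1 RPKM. Among the 59 genes with at least 1 RPKM by RNA-seq, 11 were called higher and 30 lower, against 26.8% and 40.3% of all genes at that level. The lowest ratios were those of AT4G18970, with 70.85 and 73.16 RPKM by RNA-seq and 18.8 RPKM by GMUCT (-1.91), and of MVP1, with 43.55 and 43.41 against 12.56 RPKM (-1.75). The highest were those of AT3G27950, with 0.05 and 0.06 against 3.2 RPKM (2.74), and of AT1G28640, listed at 6.55 RPKM in GMUCT and missing from both RNA-seq tables. EXL6 was thus lower in ratio than any of the 64, and EXL5 lower than all but AT4G18970.

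**Figure D4:**
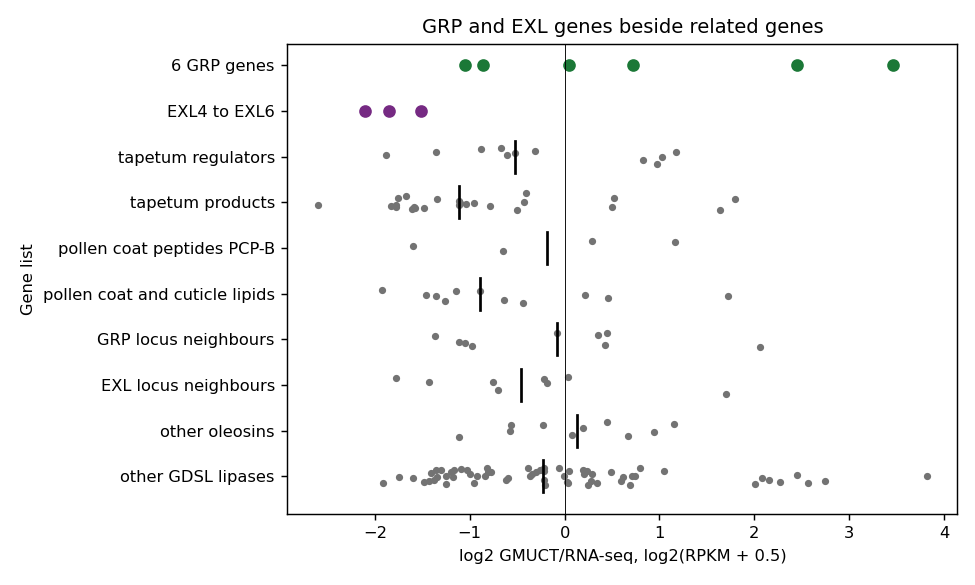
log2 ratio of GMUCT to RNA-seq for the 6 GRP genes (green), EXL4 to EXL6 (purple) and the tested genes of 8 related lists (grey points, 1 per gene; black bars are list medians). The GRP genes spread from -1.05 to 3.46, and EXL4 to EXL6 lie from -2.10 to -1.51.

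Most genes of the tapetum list lay on the same side as the EXL lipases. Of 24 tapetum products, 15 were below both RNA-seq libraries in the 2-fold rule and 2 above both, with a median log2 ratio of -1.11. Over all tested genes 17.3% were below both and 19.9% above both, and the median was -0.07. The products were abundant, with a median RNA-seq mean of 99.1 RPKM. Among genes with at least 10 RPKM by RNA-seq, 26.8% were below both and 11.8% above both. The median of non-member genes with a coding model at that level was -0.42. The lowest were ACOS5, an acyl-CoA synthetase of sporopollenin synthesis, with 65.26 and 71.76 RPKM by RNA-seq and 10.86 RPKM by GMUCT (-2.60), and the sporopollenin transporter ABCG26, with 25.32 and 24.92 against 6.73 RPKM (-1.83). On the high side were TKPR1, a reductase of sporopollenin synthesis, with 90.26 and 82.76 against 271.15 RPKM (1.64), and CEP1, a cysteine protease of tapetum breakdown, with 1.39 and 1.43 against 6.14 RPKM (1.80). TKPR1 and CEP1 were the 2 tapetum products above both libraries, the side on which GRP17 and GRP16 lay. The list was drawn up with earlier results of these data known, so it is no independent support.

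The regulators of the tapetum had RNA-seq means below those of the members other than EXL5 and GRP18, AMS being the most abundant. AMS, a transcription factor needed for tapetum development, had 62.42 and 59.95 RPKM by RNA-seq and 23.54 RPKM by GMUCT (log2 ratio -1.36). EMS1, the receptor kinase of tapetum fate, had 15.07 and 15.58 against 3.79 RPKM (-1.88). MS1, a late regulator of tapetum secretion, had 2.58 and 2.94 against 5.86 RPKM (0.97) and did not meet the 2-fold rule.

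TPD1, the ligand of EMS1, and the transcription factors bHLH10, bHLH89 and bHLH91 had ratios of -0.67, -0.61, -0.88 and -0.52. None of them met the 2-fold rule. SPL/NZZ (0.83), DYT1 (1.17), TDF1 (-0.31) and MYB80 (1.03) passed neither limma nor the 2-fold rule. DYT1 had 0.35 and 0.9 RPKM by RNA-seq and 1.96 RPKM by GMUCT. It passed the filter only through GMUCT, so it could only lie on the high side. In all, 2 of 11 regulators were below both RNA-seq libraries in the 2-fold rule and 0 above both. Of all tested genes, 17.3% were below both and 19.9% above both. The median of the regulators was -0.519, or -0.882 with the filter at a mean of 5 RPKM.

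Of the other coat components, the PCP-B peptides, small cysteine-rich proteins that act at the first contact of pollen and stigma, went both ways. PCP-Bg had 12.68 and 15.29 RPKM by RNA-seq and 31.69 RPKM by GMUCT, above both RNA-seq libraries in the 2-fold rule. PCP-Bb had 4.3 and 6.32 against 1.39 RPKM, below both. PCP-Ba (31.33 and 33.8 against 39.84 RPKM) and PCP-Bd (3.14 and 3.84 against 2.03 RPKM) passed neither limma nor the 2-fold rule. Over all genes with at least 1 RPKM by RNA-seq, 14.1% were above both and 18.9% below both. Nothing is read from 1 of 4 genes on each side. The median log2 ratio of these 4 genes was -0.182 and had no stable size or sign, being 0.723 with the filter at a mean of 5 RPKM and -1.16 with the length trend removed.

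Among 11 genes of coat and cuticle lipids, 5 were below both RNA-seq libraries in the 2-fold rule and 1 above both. Over all genes with at least 1 RPKM by RNA-seq, 18.9% were below both and 14.1% above both. The list had a median RNA-seq mean of 77.5 RPKM. Among genes with at least 10 RPKM by RNA-seq, 26.8% were below both and 11.8% above both. The median log2 ratio of the list was -0.89, or -0.559 with the length trend removed. The transporter gene ABCG31 (10.83 and 9.59 against 2.33 RPKM, -1.92) and the acyl-CoA synthetase gene LACS1 (183.65 and 183.19 against 66.29 RPKM, -1.46) were the lowest. CER2, a gene of very-long-chain lipid synthesis, was the highest, with 76.15 and 78.82 against 255.85 RPKM (1.72), followed by CER6, a condensing enzyme of fatty acid elongation, with 244.59 and 263.24 against 349.35 RPKM (0.46).

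Markers of pollen grains were present as well in these buds, though not all of them passed the filter. Of 8 such genes 6 were tested, with 3 below both RNA-seq libraries in the 2-fold rule and 0 above both. Among all genes with at least 10 RPKM by RNA-seq, 26.8% were below both and 11.8% above both. DUO1 (0.57 and 0.43 RPKM by RNA-seq) and HAP2 (0.38 and 0.32 RPKM) were low and did not pass the filter. The summed level of the 8 genes was 763.9 and 731.9 RPKM in the RNA-seq libraries and 192.1 RPKM in GMUCT, and none of the 8 was listed at 0. AGP23, an arabinogalactan protein gene, had 369.08 and 327.93 RPKM by RNA-seq and 10.76 RPKM by GMUCT, and RALF4, a signalling peptide gene of the pollen tube, had 36.49 and 40.96 against 3.7 RPKM. The highest ratios were those of AGP6 (0.41) and AGP11 (0.33). The part of pollen RNA in the GRP and EXL values was not tested.

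Genes annotated as glycine-rich proteins form a list made after the member ratios were seen. The list left out genes annotated as glycine-rich RNA-binding proteins, such as GR-RBP2. Many of its genes, GRP23 and GRP5 among them, were already counted above among the genes rich in glycine codons. Its counts are therefore not independent of those above. Of the 55 genes of the list that were tested, 17 had an RNA-seq mean under 1 RPKM and passed the filter only through GMUCT. Among the other 38, 28 (73.7%) were above both RNA-seq libraries in the 2-fold rule and 0 below both, with a median log2 ratio of 1.47. Over all 18510 genes with at least 1 RPKM by RNA-seq, 14.1% were above both and 18.9% below both. With the 17 included, 45 of 55 were above both. The highest ratios of the list were those of AT2G04063 (5.55) and AT3G24250 (5.36), both under 1 RPKM by RNA-seq, and the lowest were those of AT4G32920 (-0.90) and AT1G67870 (-0.84).

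Of 5 tested flower genes, 1 was below both RNA-seq libraries in the 2-fold rule and 0 above both. Among all genes with at least 10 RPKM by RNA-seq, 26.8% were below both and 11.8% above both. The highest log2 ratio of the list was that of the petal and stamen identity gene AP3 (0.89). PI, its partner, was at -0.25, and the lowest were SEP3 (-1.45) and AG (-0.94), further floral identity genes. Of 3 green tissue and epidermis genes, 2 were below both RNA-seq libraries in the 2-fold rule, against the same 26.8%. These were the chlorophyll-binding protein gene LHCB1.3 (-2.70) and the lipid transfer protein gene LTP1 (-2.13). The Rubisco subunit gene RBCS1A (-0.86) met neither side. The summed level of the 3 genes was 8971 and 9096 RPKM by RNA-seq and 2880 RPKM by GMUCT.

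For each member the gene outside the group with the nearest values was found, by Euclidean distance over the 3 libraries on the log2(RPKM + 0.5) scale. For GRP17 this was AT4G29030, a putative membrane lipoprotein gene, with 390.02 and 355.04 RPKM by RNA-seq and 3314.48 RPKM by GMUCT, at a distance of 0.80. The other 8 members had a gene within 0.25.

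The nearest gene of GRP16 was CP5 (distance 0.21), of GRP14 it was C4H, an enzyme of phenylpropanoid synthesis (0.19), and of GRP18 it was ADT5, an arogenate dehydratase (0.11). GRP19 lay nearest to TUB2, a beta tubulin (0.16), and GRP20 to AT1G74470, an oxidoreductase gene (0.25). EXL4 lay nearest to the transketolase gene AT3G60750 (0.084), EXL5 to AT3G56580 (0.047) and EXL6 to RALFL9 (0.029).

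The limma p-values rest on 1 residual degree of freedom and on the assumption of equal spread in both assays, which a single GMUCT library cannot check. No label states that different plants were used for each RNA-seq library, so the spread behind these p-values, which is that of these samples alone, may be technical.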

How the data were processed

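RPKM values were made by the authors and deposited with 2 decimals, 1 table per library, with a gene identifier on each line. The submitters' processing notes name cutadapt 1.4.2, STAR 2.4.0 and the TAIR10 build. The sources used here do not give the counting tool, the annotation release, or how strand and multiply matching reads were treated. A gene missing from a table was taken as 0 RPKM.

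Ratios were computed on the log2(RPKM + 0.5) scale, which pulls the ratios of low genes towards 0, for 20214 genes whose mean of the RNA-seq mean and GMUCT was at least 1 RPKM. The 2-fold rule needs no assumption on the spread of GMUCT. limma 3.58.1 (R 4.3.3; eBayes with trend, two-sided, Benjamini-Hochberg adjustment over all tested genes) was used for genes other than the 9 members. It was tested on simulated data in which GMUCT varied as little as RNA-seq, so equal spread of the assays was assumed there too and not checked. The members and gene lists were chosen with earlier results of these data known. The list of genes rich in glycine codons was formed after the member ratios were seen.

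Depth was estimated from genes with 1 transcript model, as the read total that put most low values within 0.1 of a whole read; 34.7% to 35.4% did, where chance gives 20%, so depths are rough and no counting interval is given. For GMUCT the best total was halved, because values near odd read numbers were missing at it.

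Gene models, lengths, product names and sequences came from the TAIR10.1 genome and its RefSeq annotation, which held 20072 of the tested identifiers. Its name differs from the authors' build, and the deposited tables hold no coordinates. EXL5 and EXL1 to EXL3 are names by use, since RefSeq lists these genes by identifier. For each gene the transcript model numbered 1, or else the longest coding one, gave codons and exons.

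Named genes were the 9 members, all neighbours at both loci, all tapetum regulators, and the 2 highest and 2 lowest ratios of each other list among genes of at least 1 RPKM; markers of pollen, flower, seed and green tissue could be named as well. Examples outside this rule are said to be picked after their values were seen. The member's nearest gene in the 3 libraries was also named. Alternatives covered pseudocounts, filters, centring, a length trend, limma without trend, fold thresholds and leaving out each RNA-seq library. Sequences were handled with Biopython 1.88, tables with pandas 2.3.3 and figures with matplotlib 3.10.9, under Python 3.11.15.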

Additional observations from a re-analysis of the deposited data

How the results depend on the processing

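No paired analysis was possible because GMUCT has 1 library and shares only 1 replicate number with RNA-seq. Among all genes, the count above both RNA-seq libraries was 4023 and moved to 2499 with a filter at a mean of 5 RPKM and to 1760 at 4-fold. The count below both was 3501 and moved to 6072 at 1.5-fold and 395 at 4-fold. Of the members, 2 were above both under every setting run. The count of members below both was 3 and became 5 with the length trend removed, 5 at 1.5-fold and 1 at 4-fold; fold thresholds change the rule itself, and the cause of the length effect was not tested. Leaving out each RNA-seq library in turn gave 4293 to 4363 genes above, 3810 to 3852 below, 2 members above under both, and 3 to 4 members below. Of 54 member ratios recomputed, 14 moved by more than the RNA-seq spread; with the length trend removed GRP18 changed sign, from 0.05 to -0.24, as it did without RNA-seq replicate 1 (-0.025), and its sign is not called. List medians were recomputed under alternatives chosen after seeing the data: that of the PCP-B genes turned from -0.182 to 0.723 with the filter at a mean of 5 RPKM and became -1.16 with the length trend removed, and that of the other oleosins from 0.133 to -0.233 with that filter and -0.291 with the length trend removed, and it ranged from -0.095 to 0.219 without either RNA-seq library. Medians that moved by over 1.5 times without turning were those of the other GDSL lipases (-0.224 to -0.604), the tapetum regulators (-0.519 to -0.882), the GRP neighbours (-0.085 to -0.598) and the EXL neighbours (-0.461 to -0.222) with the filter at 5 RPKM, and those of the coat lipids (-0.89 to -0.559) and the GRP neighbours (to -0.782) with the length trend removed. The median of the genes annotated as glycine-rich proteins was 2.2 and became 1.47 among genes with at least 1 RPKM by RNA-seq. The share of other genes with at least 20% glycine codons above both libraries was 69.8% with no minimum RNA-seq level. It was 60.6% among genes with at least 1 RPKM by RNA-seq and 58.0% at 10 RPKM. With no minimum it was 50.5% at a limit of 15%, 85.7% at 30% and 57.0% with the length trend removed. Settings with no minimum kept genes that passed the filter only through GMUCT and could only lie high. No trend with the glycine limit is therefore read from them. In the main setting, 19.9% of all tested genes were above both. The single GMUCT library and the rough depths limit every ratio.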
